A study of Homo sapiens with 2 samples.

Results

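The nuclear genes of the mitochondrial protein import machinery were followed in A549 cells, a human lung adenocarcinoma line, after knockdown of DEPDC1B. The set holds every TOMM and TIMM gene in the deposited table together with GRPEL1, GRPEL2, PAM16, PMPCA, PMPCB, CHCHD4, SAMM50, MTX1 and MTX2. These are 35 of the 39720 gene symbols measured. They were picked by name, but with earlier results of these data known. RNA sequencing gave 1 library of cells with a DEPDC1B-directed short hairpin RNA (shDEPDC1B) and 1 library of cells with a negative control hairpin (shNC). Both cultures received lentiviral particles with polybrene at 5 µg/mL, and their RNA was collected on day 2. Whether either culture was a pool or a clone, and which sequences the hairpins match, is not stated in the labels. The question is which transcripts differ when DEPDC1B, a protein with a DEP domain, is depleted.

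With 1 library in each group there is no replicate check on any difference. The values therefore compare 2 libraries, not 2 conditions, and no p-value was computed. DEPDC1B itself had 39 counts in the shDEPDC1B library and 329 in the shNC library, a log2 ratio of -2.997 [-3.51, -2.52]. Square brackets give the exact 95% interval of counting error only. The libraries held 18862371 counts (shDEPDC1B) and 18647290 counts (shNC). The epithelial keratin genes KRT8 and KRT18 had at least 97608 counts in each library, and EPCAM, another epithelial gene, had 65 counts in shDEPDC1B and 37 in shNC. Of 6 genes of other cell types PTPRC, CD3E, VWF and DCN had at most 2 counts in either library, and the endothelial gene PECAM1 had 6 in shDEPDC1B and 11 in shNC. The fibroblast collagen gene COL1A1 had 105 counts in shDEPDC1B and 99 in shNC.

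Nearly all mitochondrial proteins are made in the cytosol and must be imported. The TOM complex is the entry gate in the outer membrane, where receptor subunits recognise precursors and pass them to the TOMM40 pore. The TIM23 translocase and its motor then carry precursors with a presequence into the matrix, the small TIM chaperones and TIM22 handle multispanning carriers, and the sorting and assembly machinery inserts beta-barrel proteins. CHCHD4 folds cysteine-rich proteins between the membranes, and the processing peptidase removes presequences.

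Most of the import genes were slightly higher in the shDEPDC1B library, and few lay far from equality. Ratios were assessed for genes with 30 counts or more in the higher library, which left 34 of the 35 members and 13850 genes in all. TOMM20L, a paralog of TOMM20, had 1 count in each library and was not assessed, and each of the other members had at least 95 counts in both libraries. A gene is called higher or lower here when it was at least 1.5-fold away with an interval that excludes equality. By this rule 7 members were higher in shDEPDC1B, where 19.2% of all assessed genes were, which is 20.6% of the members. The share that was higher is thus close to that of all genes. Only TOMM20 was lower, 2.94% of the members against 19.6% of all assessed genes. The median log2 ratio of the members was 0.34, and that of all assessed genes was 0.04. The SD of the log2 ratio was 0.45 across the 34 members and 0.79 across all assessed genes. These SDs are not like for like. The assessed members had at least 95 counts in both libraries, while assessed genes needed only 30 in the higher library. Among all called genes 49.6% were higher. Scaling by library totals alone brought this to 38.8%, and under that scaling 5 members were higher and 2 lower.

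Intervals that excluded equality, whatever the fold, were found above it for 21 members and below it for 4. The same shares over all assessed genes were 38.9% above and 34.9% below. A ratio above 1 was seen for 27 of the 34 members, against 51.9% of all assessed genes. In bulk RNA a change in the number of mitochondria-rich cells cannot be told apart from a change in RNA per cell.

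**Figure D1:**
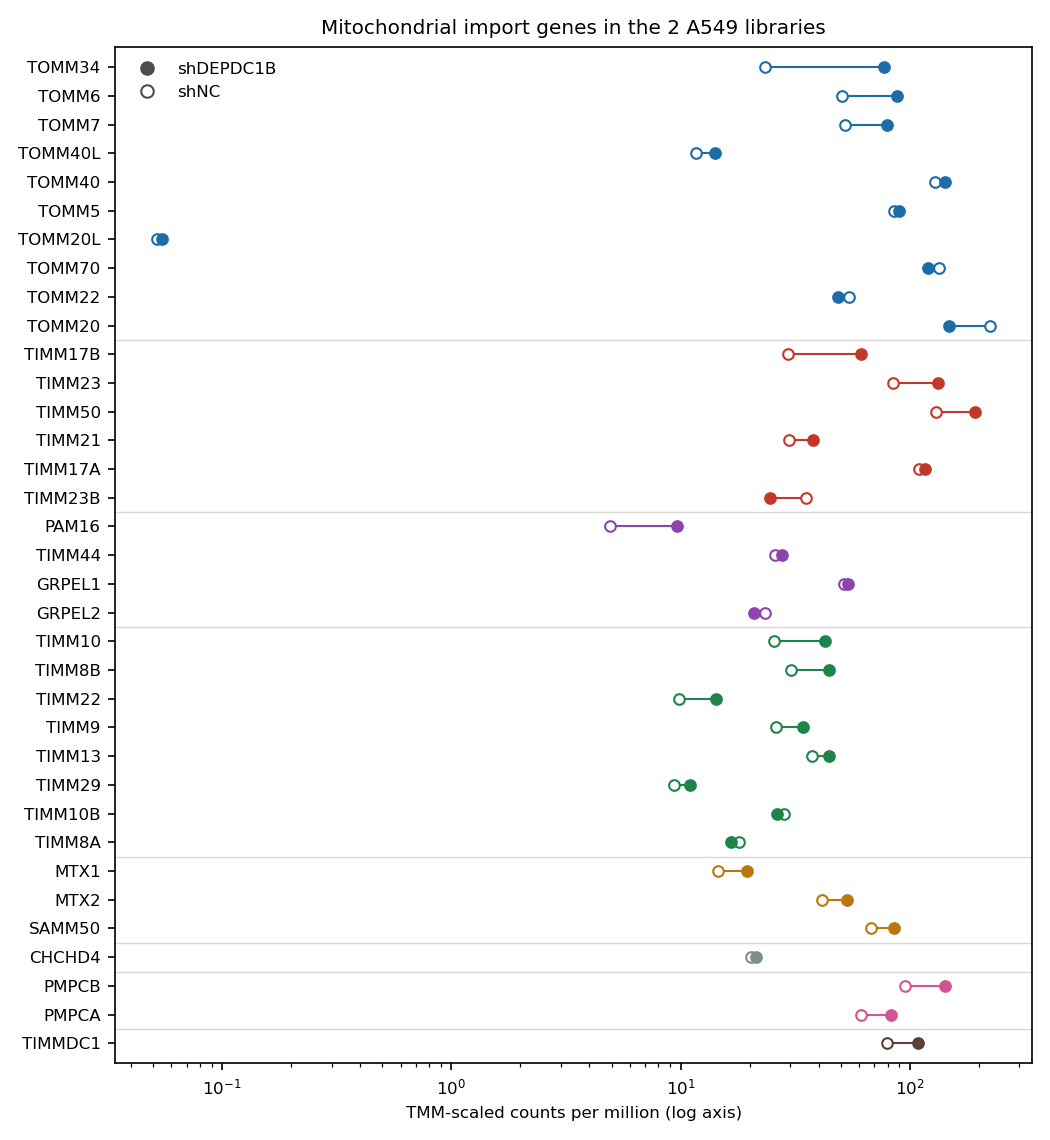
CPM of the 35 import genes on a log axis, with filled circles for the shDEPDC1B library and open circles for the shNC library, 1 library each, grouped from top to bottom as TOMM genes, TIM23 translocase, motor, TIM22 and small TIMs, sorting and assembly, disulfide relay, processing peptidase and TIMMDC1. The widest gap belongs to TOMM34, 77.1 in shDEPDC1B and 23.2 in shNC, and TOMM20 is the most abundant member in which the filled circle lies to the left, 149 in shDEPDC1B and 224 in shNC.

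Within the TOM complex all 3 receptor genes had ratios below 1 before any adjustment for length. The pore gene and the small subunits had ratios above 1, and the differences between these classes were not tested. TOMM20, the receptor that binds presequences, had 2712 counts in shDEPDC1B and 4326 in shNC, or 149 CPM in shDEPDC1B and 224 CPM in shNC (CPM, counts relative to the scaled library total), a log2 ratio of -0.59 [-0.66, -0.52]. TOMM20 (GRCh38 chromosome 1, 235109336 to 235128936, minus strand) was the member with the most counts in shNC, where it ranked 6 of 35 per kilobase of transcript, and it ranked 13 in shDEPDC1B. TOMM70, the receptor for carrier precursors that are delivered by cytosolic chaperones, had 2196 counts in shDEPDC1B and 2590 in shNC, a log2 ratio of -0.16 [-0.24, -0.08]. TOMM22, the central receptor, had 884 counts in shDEPDC1B and 1046 in shNC, a log2 ratio of -0.16 [-0.29, -0.03]. Neither TOMM70 nor TOMM22 reached 1.5-fold, and the sign of TOMM70 turned to 0.11 after a fit on transcript length and GC content was subtracted.

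The pore gene TOMM40 had 2583 counts in shDEPDC1B and 2479 in shNC, a log2 ratio of 0.14 [0.06, 0.22], and -0.01 after the same fit. The small subunits, which stabilise the complex, did not move as one. TOMM6 was higher, with 1604 counts in shDEPDC1B and 977 in shNC, a log2 ratio of 0.80 [0.68, 0.91]. TOMM7 was higher as well, with 1447 counts in shDEPDC1B and 1001 in shNC, a log2 ratio of 0.61 [0.49, 0.73]. After the fit on length and GC content TOMM6 was at 0.13 and TOMM7 at 0.11, so neither call remained. TOMM5 had 1642 counts in shDEPDC1B and 1639 in shNC, a log2 ratio of 0.08 [-0.02, 0.18], so counting error covers equality, and it was at -0.44 after the fit. Per kilobase of transcript, TOMM6 ranked highest of all members in shDEPDC1B at 138 CPM per kilobase, whereas TOMM5 ranked highest in shNC at 105. Summed over genes, the receptors had 94.9 CPM per kilobase in shDEPDC1B and 123 in shNC, a ratio of 0.770. The small subunits summed to 351 CPM per kilobase in shDEPDC1B and 251 in shNC, a ratio of 1.40. These sums are not adjusted for length or GC content, and after the fit the receptors TOMM20 and TOMM22 stood at -0.42 and -0.31.

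TOMM34 was the member farthest from equality. Despite its name it is not a TOM subunit but a cytosolic cochaperone that binds the chaperones HSP70 and HSP90 and escorts precursors. TOMM34 (GRCh38 chromosome 20, 44942130 to 44960486, minus strand) had 1406 counts in shDEPDC1B and 448 in shNC, or 77.1 CPM in shDEPDC1B and 23.2 CPM in shNC, a 3.32-fold higher level with a log2 ratio of 1.73 [1.58, 1.89]. It lay at percentile 99.0 of all assessed genes and still stood at 1.46 after the fit on length and GC content. Among the members TOMM34 and TIMM17B were at least 2-fold higher and none was 2-fold lower, while over all assessed genes 5.86% were 2-fold higher and 8.97% 2-fold lower. TOMM40L, a paralog of the pore gene, had 258 counts in shDEPDC1B and 225 in shNC, a log2 ratio of 0.28 [0.01, 0.54].

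Promoter windows are shown for the most shifted TOMM genes on both sides and for TIMM10, to set the same letters beside opposite directions. Each runs from 250 bases before to 50 bases after the start of the gene in RefSeq (GRCh38.p14), 5′ to 3′ on the strand of the gene. Capitals mark the core CCGGAAGT, the letters recognised by ETS family factors such as GABPA, a known regulator of mitochondrial genes. The windows are chr1:235128788-235129087 for TOMM20, chr11:57530705-57531004 for TIMM10, chr6:41787444-41787743 for TOMM6 and chr20:44960348-44960647 for TOMM34. All but the TOMM6 window lie on the minus strand.
TOMM20: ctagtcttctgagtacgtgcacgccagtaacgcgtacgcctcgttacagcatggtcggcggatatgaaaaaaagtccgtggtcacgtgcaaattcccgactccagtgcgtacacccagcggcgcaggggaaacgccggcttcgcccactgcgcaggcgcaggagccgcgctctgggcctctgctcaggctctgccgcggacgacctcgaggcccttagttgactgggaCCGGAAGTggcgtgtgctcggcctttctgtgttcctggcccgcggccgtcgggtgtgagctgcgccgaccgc
TIMM10: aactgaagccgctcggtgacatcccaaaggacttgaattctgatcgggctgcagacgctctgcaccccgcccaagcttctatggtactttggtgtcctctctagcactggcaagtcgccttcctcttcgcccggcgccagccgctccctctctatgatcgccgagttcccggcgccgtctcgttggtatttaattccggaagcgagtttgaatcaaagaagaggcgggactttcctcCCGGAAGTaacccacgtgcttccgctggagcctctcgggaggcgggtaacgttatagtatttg
TOMM6: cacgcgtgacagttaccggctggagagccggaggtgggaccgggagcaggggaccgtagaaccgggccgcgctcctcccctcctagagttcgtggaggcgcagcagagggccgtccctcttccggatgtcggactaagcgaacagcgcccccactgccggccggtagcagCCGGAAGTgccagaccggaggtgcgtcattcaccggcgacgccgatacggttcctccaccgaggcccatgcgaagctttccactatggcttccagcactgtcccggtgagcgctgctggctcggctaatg
TOMM34: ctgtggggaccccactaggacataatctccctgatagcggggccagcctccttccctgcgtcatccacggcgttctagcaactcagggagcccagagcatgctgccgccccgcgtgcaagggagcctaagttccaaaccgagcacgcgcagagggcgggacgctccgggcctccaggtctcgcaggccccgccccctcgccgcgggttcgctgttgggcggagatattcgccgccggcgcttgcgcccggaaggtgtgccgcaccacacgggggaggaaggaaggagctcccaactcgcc
The ETS core begins at base -22 in TOMM20, at -13 in TIMM10 and at -80 in TOMM6, counted from the start, and is absent from the TOMM34 window. These letters stand in the windows of TOMM20, the only member that was lower, and of TIMM10 and TOMM6, which were higher. The windows were chosen to show this, so it is not a result about the letters. The windows of the higher members PAM16, TIMM17B, TIMM23 and TOMM7 also lack the core. After the fit on length and GC content TOMM20 stood at -0.42, TIMM10 at 0.05 and TOMM6 at 0.13.

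RefSeq windows were matched for 32 of the 35 members, all but GRPEL1, TIMM8B and TOMM5. On either strand the ETS core was found in 9 of them, or 28.1%, where 4.35% of 27305 promoter windows of the same length held it, and 8.62% of the 10317 windows of assessed genes. The short site TGCGCA of NRF1, another known regulator of mitochondrial genes, was found in 8 windows, or 25%, against 13.1% of the windows of assessed genes. The longer NRF1 core, GCGCA followed directly by TGCGC, was found only in CHCHD4, 3.12% of the windows against 2.20% of those of assessed genes, where it overlaps a short site. The E-box CACGTG was found in 3 windows, 9.38% against 9.70% of the windows of assessed genes, and TGACTCAGC, the core of the antioxidant element, in none. No other match overlapped one of another motif. Assessed members with an ETS core had a median log2 ratio of 0.22 and those without one 0.36. A match is a description of letters and not a binding site.

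**Figure D2:**
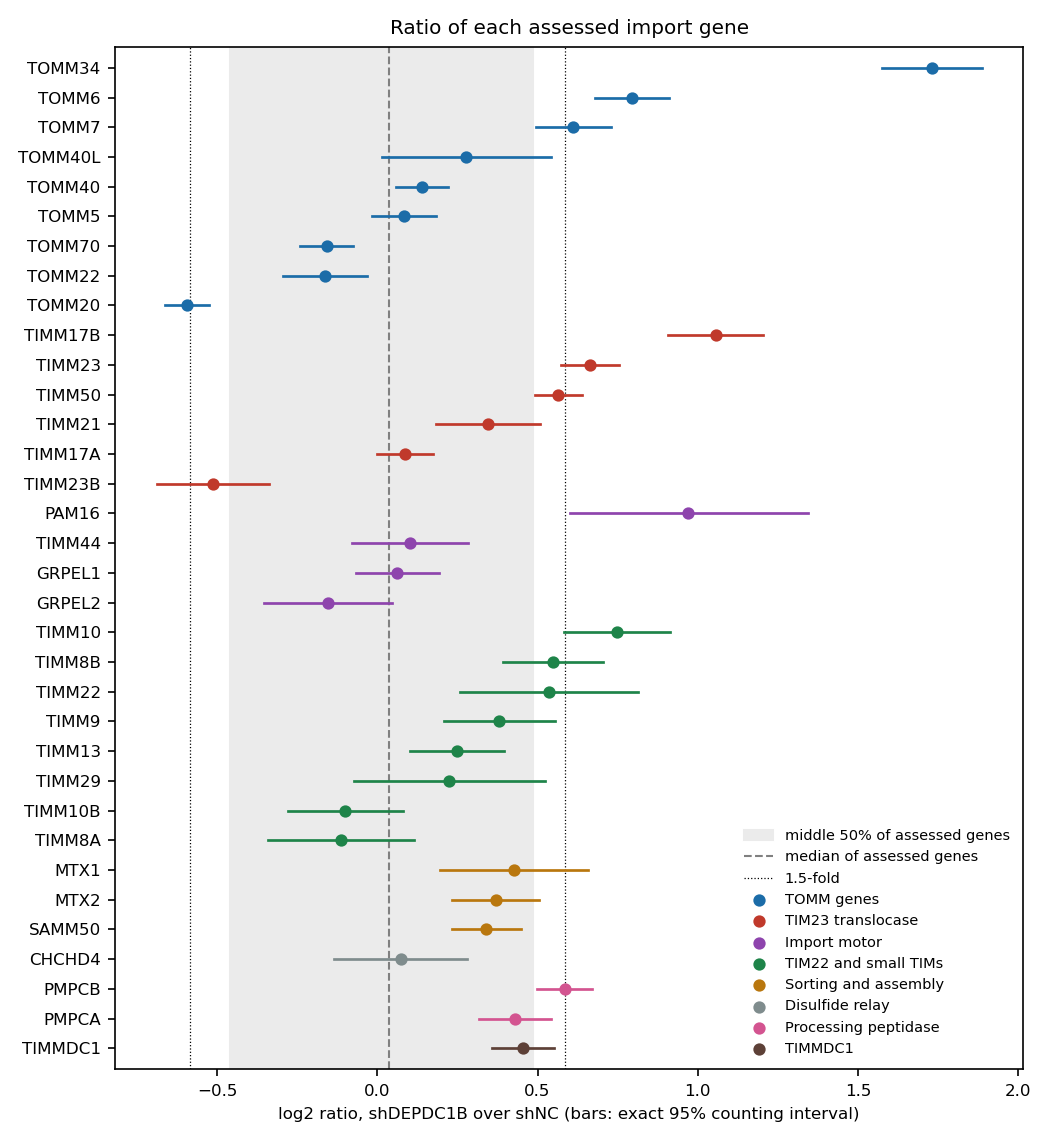
Log2 ratio of shDEPDC1B over shNC for each of the 34 assessed import genes, with the exact 95% counting interval as a bar and 1 library per group. Shading spans the middle 50% of all assessed genes, from -0.46 to 0.49. The 7 higher genes lie past the right dotted line at 1.5-fold, and TOMM20 alone lies past the left one.

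In the TIM23 translocase 5 of 6 genes had ratios above 1, against 51.9% of all assessed genes. TIMM17B and TIMM23 were higher, 33.3% against 19.2% of all assessed genes, and neither call remained after the fit on length and GC content. TIMM17B, a channel-lining subunit, had 1113 counts in shDEPDC1B and 566 in shNC, or 61.0 CPM in shDEPDC1B and 29.4 CPM in shNC, a log2 ratio of 1.06 [0.908, 1.204], and 0.39 after the fit on length and GC content, which is short of 1.5-fold. Its paralog TIMM17A had 2132 counts in shDEPDC1B and 2121 in shNC, a log2 ratio of 0.09 with an interval that touches equality. The log2 ratio of TIMM17A was below that of TIMM17B by 0.97, an exact interval of the difference of -1.14 to -0.80 that does not depend on how the libraries were scaled. After the fit TIMM17A stood at -0.02. TIMM17A transcripts were therefore 1.27 times as abundant per kilobase as those of TIMM17B in shDEPDC1B and 2.48 times as abundant in shNC.

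TIMM50, the receptor that receives presequences from the TOM complex, had 3506 counts in shDEPDC1B, the most of any member there, and 2505 in shNC. Its log2 ratio of 0.56 [0.49, 0.64] lay just short of 1.5-fold. TIMM21, which couples the translocase to the TOM complex and to respiratory chain assembly, had 690 counts in shDEPDC1B and 574 in shNC, a log2 ratio of 0.35 [0.18, 0.51].

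TIMM23, the presequence channel, had 2427 counts in shDEPDC1B and 1620 in shNC, a log2 ratio of 0.66 [0.57, 0.75], and 0.28 after the fit. Its near copy TIMM23B on the same chromosome had 448 counts in shDEPDC1B and 676 in shNC, a log2 ratio of -0.51 [-0.69, -0.34]. The counting software divided reads that match both copies by a model, so the split between them is uncertain. With the counts of both added, they came to 2875 in shDEPDC1B and 2296 in shNC, a log2 ratio of 0.40 [0.32, 0.48], which is short of 1.5-fold.

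Of the 4 motor genes PAM16 was higher, or 25%, against 19.2% of all assessed genes. PAM16, which controls the ATPase cycle of the matrix chaperone HSPA9 at the channel, had 176 counts in shDEPDC1B and 95 in shNC, a log2 ratio of 0.97 [0.60, 1.34], and 0.18 after the fit on length and GC content, which ends the call. It shares exons with the read-through gene CORO7-PAM16, which had 38 counts in shDEPDC1B and 40 in shNC, and the sum of both gave a log2 ratio of 0.74 [0.43, 1.07]. CORO7, the other gene of that read-through, had 214 counts in shDEPDC1B and 100 in shNC. TIMM44, the tether of the motor, had 506 counts in shDEPDC1B and 498 in shNC, a log2 ratio of 0.10 [-0.08, 0.28]. The nucleotide exchange factor GRPEL1 was at 0.06 [-0.07, 0.19] on the log2 scale, and its paralog GRPEL2 was at -0.15 [-0.35, 0.05]. The difference between GRPEL1 and GRPEL2 was 0.22 with an interval of -0.02 to 0.46, which allows no order.

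The 8 genes of the TIM22 translocase and the small TIM chaperones had a median log2 ratio of 0.31. Only TIMM10 was higher, 12.5% of them against 19.2% of all assessed genes. TIMM10, which forms the hexameric chaperone with TIMM9, had 781 counts in shDEPDC1B and 492 in shNC, a log2 ratio of 0.75 [0.58, 0.91]. Its call did not remain after the fit on length and GC content, at 0.05, or after a loess on length, at 0.12. TIMM9 had 621 counts in shDEPDC1B and 504 in shNC, a log2 ratio of 0.38 [0.21, 0.55]. TIMM10B, the subunit that docks this chaperone to TIM22, had 482 counts in shDEPDC1B and 546 in shNC, a log2 ratio of -0.10 [-0.28, 0.08]. TIMM10 and TIMM10B differed by 0.85 on the log2 scale, with an interval of 0.60 to 1.09. Their transcripts differ in length, 680 nucleotides for TIMM10 and 2840 for TIMM10B, and after the fit TIMM10B stood at -0.09.

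The TIMM8 paralogs also differed before any adjustment for length. TIMM8B had 812 counts in shDEPDC1B and 587 in shNC, a log2 ratio of 0.55 [0.39, 0.70]. TIMM8A, mutated in a syndrome of deafness and dystonia, had 302 counts in shDEPDC1B and 345 in shNC, a log2 ratio of -0.11 [-0.34, 0.11]. TIMM8A lay below TIMM8B by 0.66, with an interval of the difference of -0.94 to -0.38. The TIMM8A transcript has 2960 nucleotides and that of TIMM8B 819, and after the fit TIMM8A stood at -0.02 and TIMM8B at 0.06. TIMM13, the partner of TIMM8A, had 807 counts in shDEPDC1B and 718 in shNC, a log2 ratio of 0.25 [0.10, 0.40]. Of the TIM22 translocase itself, TIMM22, the channel, had 259 counts in shDEPDC1B and 189 in shNC, a log2 ratio of 0.53 [0.26, 0.81]. TIMM29, its human accessory subunit, had 200 counts in shDEPDC1B and 181 in shNC, and its interval of -0.07 to 0.52 covers equality.

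The sorting and assembly genes lay close together, all 3 with intervals above equality and none at 1.5-fold. SAMM50, the core of the machinery, had 1556 counts in shDEPDC1B and 1299 in shNC, a log2 ratio of 0.34 [0.23, 0.45]. MTX2 had 974 counts in shDEPDC1B and 797 in shNC, a log2 ratio of 0.37 [0.23, 0.51]. MTX1 had 356 counts in shDEPDC1B and 280 in shNC, a log2 ratio of 0.43 [0.20, 0.66], but the deposited number resembles an average of several gene copies and is uncertain. After the fit on length and GC content MTX2 stood at 0.15, SAMM50 at 0.05 and MTX1 at -0.14. All 3 turned negative after a loess on transcript length was subtracted instead.

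Both subunits of the processing peptidase had intervals above equality. PMPCB, the catalytic subunit, had 2593 counts in shDEPDC1B and 1828 in shNC, a log2 ratio of 0.58 [0.50, 0.67] that fell just short of 1.5-fold. PMPCA had 1505 counts in shDEPDC1B and 1181 in shNC, a log2 ratio of 0.43 [0.32, 0.54]. CHCHD4, the oxidoreductase of the disulfide relay, had 389 counts in shDEPDC1B and 391 in shNC, a log2 ratio of 0.07 [-0.13, 0.28]. TIMMDC1, an assembly factor of respiratory complex I from the same protein family as the TIM channels, had 1981 counts in shDEPDC1B and 1528 in shNC, a log2 ratio of 0.45 [0.36, 0.55]. In all, 9 pairs of related subunits were compared, and their intervals are not adjusted for that number. TOMM40 and TOMM40L differed by -0.14 with an interval of -0.41 to 0.14, MTX1 and MTX2 by 0.06 with -0.21 to 0.33, and PMPCA and PMPCB by -0.15 with -0.30 to -0.01. The pair of TOMM20 and TOMM20L could not be compared, since TOMM20L had 1 count in each library.

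Transcript length moved with these ratios. Across all genes with an annotated length the log2 ratio was higher for short transcripts, and 31 of the 34 members have a transcript shorter than that of the median assessed gene. The median length of the longest coding transcript was 2006.5 nucleotides for the members and 3405 for all assessed genes. When genes were cut into 10 equal bins by length, the bin of the shortest, up to 1438 nucleotides, held 12 members with a median log2 ratio of 0.58, and all genes of that bin had a median of 0.56. Among these 12 are the higher members TOMM6 with 637 nucleotides, TIMM10 with 680, PAM16 with 722, TOMM7 with 778 and TIMM17B with 1099. Others in the bin were not higher, such as TOMM5 with 808 nucleotides at 0.08 and TIMM23B with 1152 at -0.51. Of the 12 members 6 lay above the median of the bin. Of the 34 members 15 lay above the median of assessed genes in their own bin of length. As a description across genes that share both libraries, the Spearman correlation of log2 ratio and length was -0.49 over the 34 members and -0.51 over 13013 assessed genes.

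After the linear fit on length and GC content was subtracted, the median of the members was 0.07 and that of all assessed genes 0.04, and after the loess on length these were -0.04 and 0.00. TOMM34 at 1.46 and PMPCB at 0.67 were then the members higher at 1.5-fold, and TIMM23B at -0.90 the member that was lower, whereas TOMM20 was at -0.42 and TIMM17B at 0.39. After the loess TOMM34 at 1.39 was higher, and TOMM20 at -0.63 and TIMM23B at -1.05 were lower. Whether length itself plays a part in the difference of any member was not tested.

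**Figure D3:**
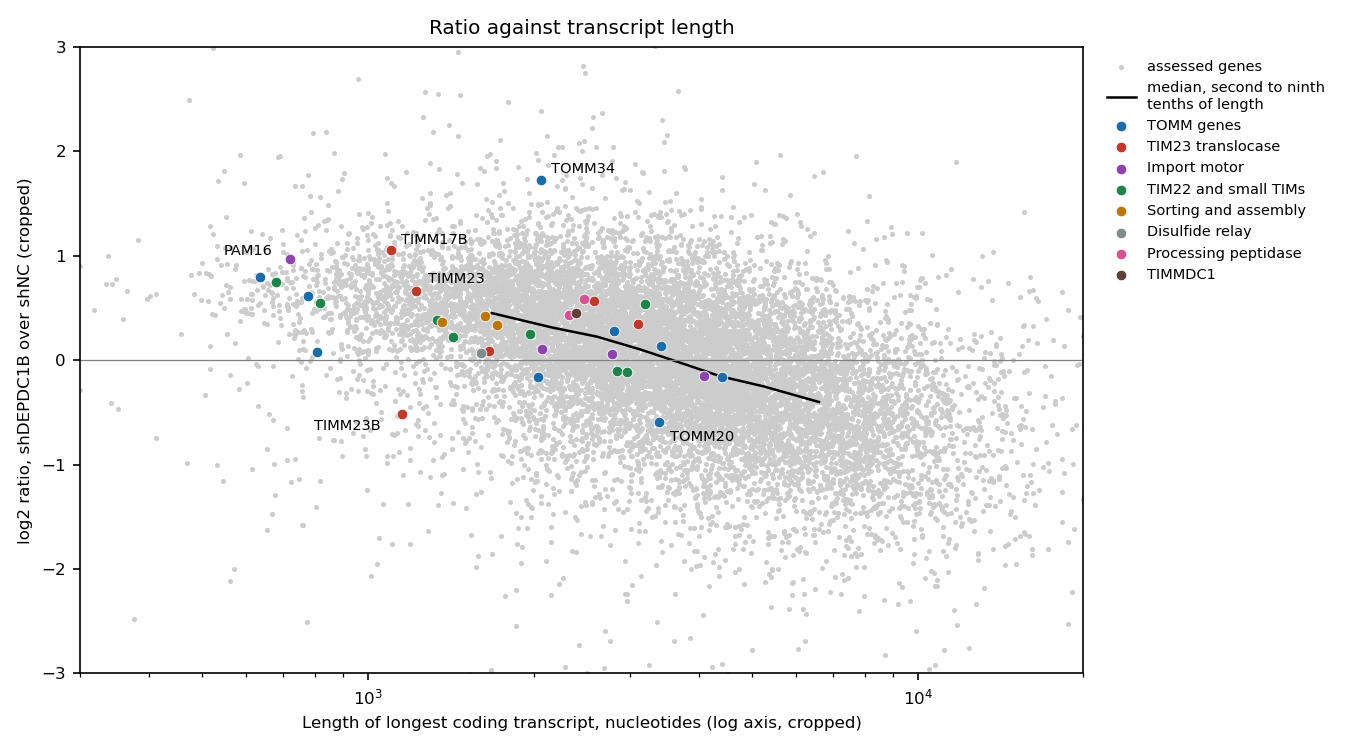
Log2 ratio of shDEPDC1B over shNC against the length of the longest coding transcript on a log axis, for assessed genes (grey) and the 34 assessed import genes (coloured by role), with the median of the second to ninth of 10 length bins as a line. The import genes lie to the left, with a median of 2006.5 nucleotides, and TOMM34 stands above the line while TOMM20 and TIMM23B stand below it.

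Genes that work beside the import machinery were read from 6 lists, which were chosen with earlier results of these data known. Of 71 assessed genes 17, or 23.9%, were higher and 6, or 8.45%, lower, with a median log2 ratio of 0.32, or 0.03 after the fit on length and GC content. Of all assessed genes 19.2% were higher, so the share of higher genes is near the background, and 19.6% were lower. Among matrix chaperones and motor partners 3 of 8, or 37.5%, were higher. These were the TIM23 subunit ROMO1 at 0.93 [0.78, 1.08], the HSP90-type chaperone TRAP1 at 0.74 and the co-chaperonin HSPE1 at 0.68. After the fit on length and GC content ROMO1 stood at -0.11, TRAP1 at 0.47 and HSPE1 at 0.15, all short of 1.5-fold. The chaperonin HSPD1, which works with HSPE1, was lower, with 14219 counts in shDEPDC1B and 25225 in shNC, a log2 ratio of -0.75 [-0.78, -0.72]. After the fit HSPD1 stood at -0.76. HSPA9, the motor chaperone itself, was at 0.16 [0.12, 0.19], and DNAJC19, the partner of PAM16, at -0.14 [-0.43, 0.15].

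Proteases that mature or degrade imported proteins had 5 of 14 genes higher, or 35.7%, and 1 lower, or 7.14%. Of all assessed genes 19.2% were higher and 19.6% lower, and lists this short were not tested against that background. The higher ones were the intermembrane space protease HTRA2 at 1.04 [0.87, 1.22] and the matrix protease subunit CLPP at 1.03 [0.87, 1.18], followed by the matrix protease LONP1 at 0.88 and the inner membrane peptidase subunits IMMP1L at 0.87 and IMMP2L at 0.87. XPNPEP3, an aminopeptidase, was lower at -0.97 [-1.13, -0.80]. After the fit on length and GC content HTRA2 stood at 0.69, LONP1 at 0.61 and IMMP2L at 0.60. IMMP1L at 0.45, CLPP at 0.32 and XPNPEP3 at -0.48 were then short of 1.5-fold. Of 11 genes of other insertases and outer membrane partners none was higher, and MTX3, another metaxin, was lower at -0.71. After the fit MTX3 stood at -0.08.

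In the list of MICOS and inner membrane organisation 3 of 11 genes, or 27.3%, were higher and 2, or 18.2%, lower. The shares over all assessed genes were 19.2% and 19.6%. The prohibitin gene PHB at 0.72, the membrane scaffold gene STOML2 at 0.71 and the MICOS subunit C19orf70 at 0.71 were higher, and the fusion GTPase OPA1 at -1.07 [-1.17, -0.96] and the MICOS subunit APOOL at -0.77 were lower. Both lower genes have long transcripts, 6493 nucleotides for OPA1 and 6466 for APOOL. After the fit on length and GC content OPA1 stood at -0.55 and APOOL at -0.25. The higher genes PHB, STOML2 and C19orf70 were then at 0.41, 0.22 and -0.14. Of the 9 cytosolic targeting factors assessed here the chaperone gene HSP90AA1 was lower at -1.04 [-1.07, -1.02], and the median log2 ratio was -0.15. Of 18 partners and substrates of the disulfide relay 6, or 33.3%, were higher and none lower. The higher ones were NDUFB7 at 1.09, CMC2 at 0.74, COA6 at 0.72, COX6B1 at 0.66, COX17 at 0.62 and CMC1 at 0.61. CHCHD4, the oxidoreductase of the relay, lay at 0.07. The 6 higher genes encode subunits or assembly factors of respiratory complexes, but so do others of the list that were not higher. Examples are COA5 at 0.57, NDUFS5 at 0.50, NDUFA8 at 0.27 and COX19 at -0.21. The median transcript of this list had 1176.5 nucleotides, and its median log2 ratio was 0.49, or -0.05 after the fit on length and GC content. After that fit CMC2 stood at 1.38 and CMC1 at 1.16, with annotated transcripts of 10301 and 6033 nucleotides. COA6 was then at 0.35, COX17 at 0.09, NDUFB7 at 0.03 and COX6B1 at -0.13.

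**Figure D4:**
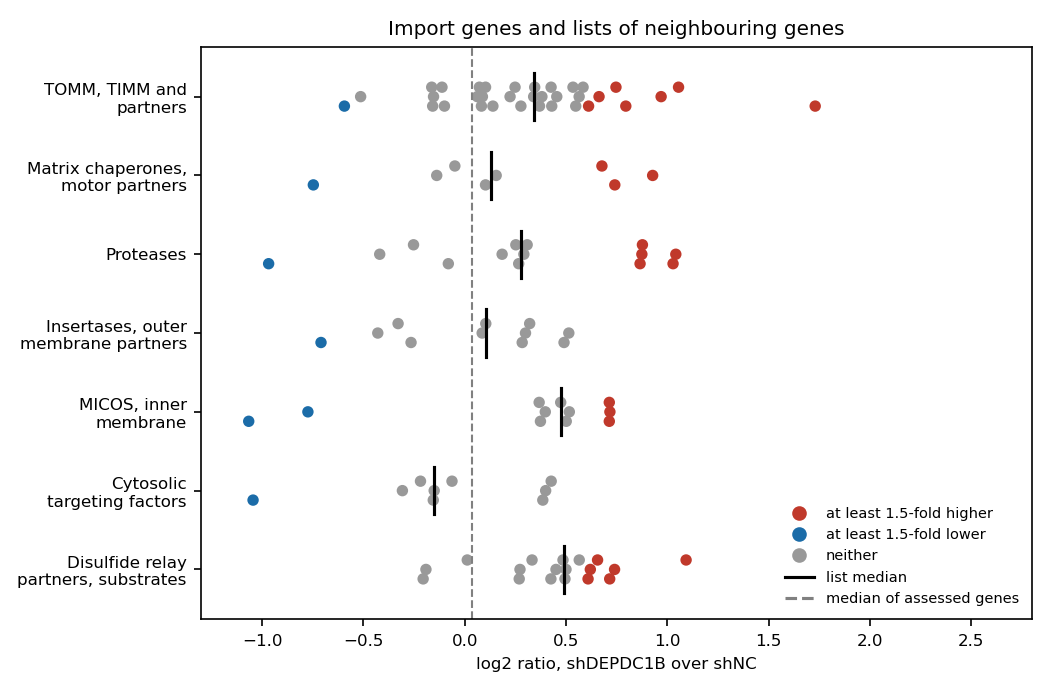
Log2 ratios of shDEPDC1B over shNC for the assessed import genes (top row) and 6 lists of neighbouring genes, with red and blue points at least 1.5-fold higher and lower, black bars at list medians and a dashed line at the median of all assessed genes, 0.04. List medians run from -0.15 for cytosolic targeting factors to 0.49 for disulfide relay partners and substrates.

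Other mitochondrial gene families were set beside the import genes. For 78 MRPL and MRPS genes, which encode the mitochondrial ribosome, the median log2 ratio was 0.53 with 32 higher, or 41%, and none lower, against 19.2% higher and 19.6% lower of all assessed genes. For 38 assessed SLC25A genes, which encode the inner membrane carriers that TIM22 inserts, it was 0.30 with 9 higher, or 23.7%, and 5 lower, or 13.2%. These medians stood at 0.15 and 0.13 after the fit on length and GC content, and the differences between families were not tested. The summed counts of the 34 import genes came to 40710 in shDEPDC1B and 35693 in shNC.

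Several members share exons with a gene on the other strand, and the labels do not state whether strand was kept in the libraries. TIMM8B overlaps NKAPD1 by 351 nucleotides of exon, and NKAPD1 had 519 counts in shDEPDC1B and 613 in shNC. PMPCB overlaps DNAJC2 by 628 nucleotides, which had 753 counts in shDEPDC1B and 997 in shNC. TIMM9 overlaps KIAA0586 by 223 nucleotides, TIMM17B overlaps PQBP1 by 77, and TIMM13 shares 257 nucleotides with LMNB2 on its own strand. All 637 exonic nucleotides of TOMM6 also belong to AL365205.1 on the same strand, which has no row in the deposited table. TOMM5 shares 340 nucleotides with AL513165.2 and 520 with AL138752.2 on its own strand, and neither has a row. The counts of TOMM6 and TOMM5 are therefore uncertain. What these overlaps add to the counts was not tested. TOMM34 and TOMM20 overlap no other annotated exon. TOMM20 has 4 named pseudogenes and TOMM22 has 6, none of them a row of the deposited table.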

How the data were processed

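Bowtie2 and RSEM on hg38 are named in the submitters' processing notes, and the deposited file gives estimated counts for each gene symbol. Versions, annotation, strand and RNA selection are not given in the sources used. RSEM divides reads that match several genes by a model. The deposited estimated counts, not scaled for depth, were rounded to whole numbers. Groups follow the treatment label, and replicates or pairing are absent.

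TMM factors (edgeR 4.0.16, R 4.3.3) of 0.967 in shDEPDC1B and 1.03 in shNC scaled the libraries. With 1 library per group no test was run. Log2 ratios are shDEPDC1B over shNC, with Clopper-Pearson 95% intervals from scipy 1.17.1. Reads have no molecular identifiers, so intervals cover counting error only. Differences between paralogs have the exact interval of the odds ratio of their 4 counts. Genes needed 30 counts in the higher library, and 1.5-fold with an interval excluding equality to be called.

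Gene coordinates, lengths and GC content are from GENCODE 29 (GRCh38), for the longest coding transcript, and 94.0% of assessed genes had them. Values per kilobase use that length. Linear and loess fits on them (span 0.3, statsmodels 0.14.6) were over all assessed genes. Promoter windows come from RefSeq tables. For 699 genes, MTX1 among them, deposited values were not whole hundredths. The calls were tested on simulated data that held counting error only, which cannot show how libraries of the same group vary. All members are accounted for, and neighbouring genes are named where called. Members and lists were chosen with earlier results of these data known. Other settings numbered 14 and included DESeq2 1.42.0 size factors, and 1 more was added after the data were seen. Of the 76 neighbouring symbols 3 were older or newer names not in the table. A further gene is left out of the list of cytosolic targeting factors and of the cochaperone list, and is not reported here.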

Additional observations from a re-analysis of the deposited data

How the results depend on the processing

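No paired analysis was possible because each group has 1 library, and no replicate could be left out. The median log2 ratio of the members was 0.34, and it was 0.074 with the length and GC fit subtracted and -0.037, a reversed sign, with the loess on transcript length subtracted. The 7 higher members became 2 with the length and GC fit, 1 with the loess on length, 2 at a fold threshold of 2 and 19 at a threshold of 1.2. The 1 lower member became 2 with library totals, 2 with the loess on length, 0 at a fold threshold of 2 and 2 at a threshold of 1.2. DESeq2 and upper-quartile factors, count filters of 10, 100 and none, a loess on mean expression, a prior count of 2, and the sets without TIMM23B and MTX1 or of TOMM and TIMM names alone gave 6 to 8 higher and 1 lower member. So did adding TIMM23B to TIMM23 and CORO7-PAM16 to PAM16, chosen after seeing the data, with 6 higher.

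Among members whose interval excluded equality, signs reversed under the length and GC fit for MTX1 (-0.14), TIMM13 (-0.24), TOMM40 (-0.014) and TOMM70 (0.11). Under the loess on length they reversed for MTX1 (-0.0145), MTX2 (-0.12), SAMM50 (-0.083), TIMM13 (-0.11), TIMM8B (-0.0545) and TIMM9 (-0.12). Among members whose interval covered equality, CHCHD4, TIMM17A, TIMM29, TIMM44 and TOMM5 changed sign under both, GRPEL2 under the fit and GRPEL1 under the loess. No sign of a member whose interval excluded equality reversed under the other scalings. The cause was not tested. Depth limits PAM16 and TIMM29, whose counting intervals are wide, and TOMM20L, with 1 count, was not measurable.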

Other observations

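The genes beside TOMM34 on chromosome 20 were read next. Of 7 assessed genes within 300 kilobases of it, 4 passed 1.5-fold on the higher side in shDEPDC1B and none on the lower side, with a median log2 ratio of 0.59. Over all assessed genes 19.2% were higher and 19.6% lower. The protease inhibitor gene SLPI had 332 counts in shDEPDC1B and 108 in shNC, a log2 ratio of 1.70, close to the 1.73 of TOMM34. WISP2, a secreted CCN family gene, was at 1.16 and the adenosine deaminase gene ADA at 0.71, while RIMS4 at 0.59 just reached the threshold. The kinase gene STK4 at -0.27 and the adaptor gene YWHAB at 0.01 in the same window were not higher. Of 4 assessed genes around TOMM20, ARID4B was lower at -1.19. Around TIMM17B 7 of 19 were higher and 1 lower. These windows were chosen after the values of the 3 genes were seen. The values of the window genes are not adjusted for length or GC content, and whether genes of a window share a cause was not tested.

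As TOMM34 is a cochaperone, the other cochaperones of HSP90 and HSP70 were looked up, a list written after its value was seen. Of the 18 genes assessed here, TOMM34 and TOMM70 included, 3 were higher and 2 lower. TOMM34, the gene that prompted the list, is counted among the 3. Both counts are near or below the shares of all assessed genes, 19.2% higher and 19.6% lower. The median log2 ratio of the list was 0.22 and that of all assessed genes 0.04, without adjustment for length or GC content. Higher beside TOMM34 were the ubiquitin ligase STUB1 at 0.82 and the phosphatase PPP5C at 0.73. PTGES3 at -0.66 and CHORDC1 at -0.61 were lower, and CHORDC1 is uncertain because its deposited number resembles an average of several gene copies.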
